A study of Rattus norvegicus with 6 samples.

Results

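Protein synthesis needs a set of soluble factors beside the ribosome, the initiation factors (eIF) that bring the ribosome to the start codon of an mRNA and the elongation factors (eEF) that carry it along the reading frame. Their genes were taken from the count table by symbol, as every gene whose name begins with Eif and a digit from 1 to 6, or with Eef1 or Eef2. The rule found 64 genes among 22601, and 63 of them were among the 14588 genes with enough reads to test. Eif4e1b, an eIF4E relative known from oocytes, was left untested, with counts of 0, 3 and 5 in the adult libraries and 5, 3 and 3 in the aged libraries. Gene groups below (roles, pathway genes and cell type markers) are lists written from textbook knowledge.

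The tissue sequenced was the ventral hippocampus. All animals were males of the outbred Sprague Dawley strain, and the labels name no genetic or drug treatment. One group was adult, at 4 months of age, and the other aged, at 22 months. Each had 10 rats that swam the Morris water maze, a test of spatial memory, and 3 rats of each age were picked at random for sequencing. The 6 libraries held from 12476758 to 15689921 counts, and the translation factor genes took between 1.17% and 1.28% of them.

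Initiation begins when eIF2 loads the initiator tRNA onto the small ribosomal subunit together with eIF1, eIF1A, eIF3 and eIF5, while eIF4F, made of eIF4E, eIF4A and eIF4G, brings in the capped mRNA. Cells slow this process by phosphorylating eIF2alpha, the trigger of the integrated stress response, or by holding eIF4E on the 4E-binding proteins, which mTORC1 releases. In elongation eEF1A delivers charged tRNAs and eEF2 moves the ribosome on, and eEF2 kinase stops eEF2. In neurons these switches are known for their part in synaptic plasticity and memory.

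Many mRNAs for ribosomal proteins and for several of these factors begin with a C followed by a run of pyrimidines, the terminal oligopyrimidine tract through which mTORC1 controls their translation. Start sites of 58 of the 64 genes were matched by symbol in the RefSeq annotation of the rat build GRCr8. A run of C and then at least 7 letters that were each C or T, on the gene's strand and within 10 bases before to 20 bases after the start, was found in 7 of them (12.1%). Of all 27457 genes with a promoter sequence, 2420 (8.81%) held such a run, and of 22 ribosomal protein genes 10 (45.5%) did. Shown are 4 genes with a tract, in capitals, and the genes of both eEF1A proteins, in which no run of this length was found. The windows hold 60 bases, 40 before and 20 after the annotated start. They lie at chr9:72074051-72074110 on the plus strand (Eef1b2), chr1:172369022-172369081 on the plus strand (Eif3f), chrX:62933680-62933739 on the minus strand (Eif2s3), chr3:111897174-111897233 on the minus strand (Eif3m), chr8:88225050-88225109 on the minus strand (Eef1a1) and chr3:188652614-188652673 on the minus strand (Eef1a2).
Eef1b2: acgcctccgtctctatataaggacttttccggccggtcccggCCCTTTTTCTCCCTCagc
Eif3f: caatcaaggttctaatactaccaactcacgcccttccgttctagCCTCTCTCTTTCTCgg
Eif2s3: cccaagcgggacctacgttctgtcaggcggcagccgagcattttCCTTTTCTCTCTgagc
Eif3m: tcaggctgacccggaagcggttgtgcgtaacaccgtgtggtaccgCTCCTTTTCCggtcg
Eef1a1: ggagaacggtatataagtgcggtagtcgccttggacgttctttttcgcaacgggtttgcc
Eef1a2: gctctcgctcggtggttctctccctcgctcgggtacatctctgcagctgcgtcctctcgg

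The tract was 15 bases long in Eef1b2, 14 in Eif3f, 12 in Eif2s3 and 10 in Eif3m. The other genes with a tract were Eef1akmt1, Eif2a and Eif4h. A match is a property of the annotated start and was not tied to a start site measured in these libraries. The Eef1a1 window holds a shorter run at its start, ctttttc, below the length that the search required. The search also matched only 10 of 22 ribosomal protein genes, so a gene without a match is not shown to lack a tract.

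To compare levels between genes, FPKM values were used, which are counts scaled by gene length and by library total. The mean FPKM of the 63 genes over all 6 libraries ran from 1.26 to 1236, with a median of 34.1; 14 genes lay over 100 FPKM and 9 under 10. Eef1a1, the general eEF1A gene, stood highest at 1236 FPKM, followed by Eef2 at 522 FPKM and Eef1a2, the eEF1A form of neurons and muscle, at 512 FPKM. Eif1, which guards start codon choice, was next at 439 FPKM, then the helicase gene Eif4a2 at 360 FPKM. Eef2 and Eef1a2 lay closer to each other than the spread of either gene over the libraries, so their order is not resolved. Eef1a1, Eef1a2 and Eef2 together took between 36.0% and 42.2% of all counts of the group. The regulators lay far lower: Eef2k averaged 7.43 FPKM, Eif2ak3 5.66 FPKM and Eif2ak4 4.14 FPKM. The lowest level was that of Eef2kmt, which encodes a methyltransferase of eEF2, at 1.26 FPKM.

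**Figure D1:**
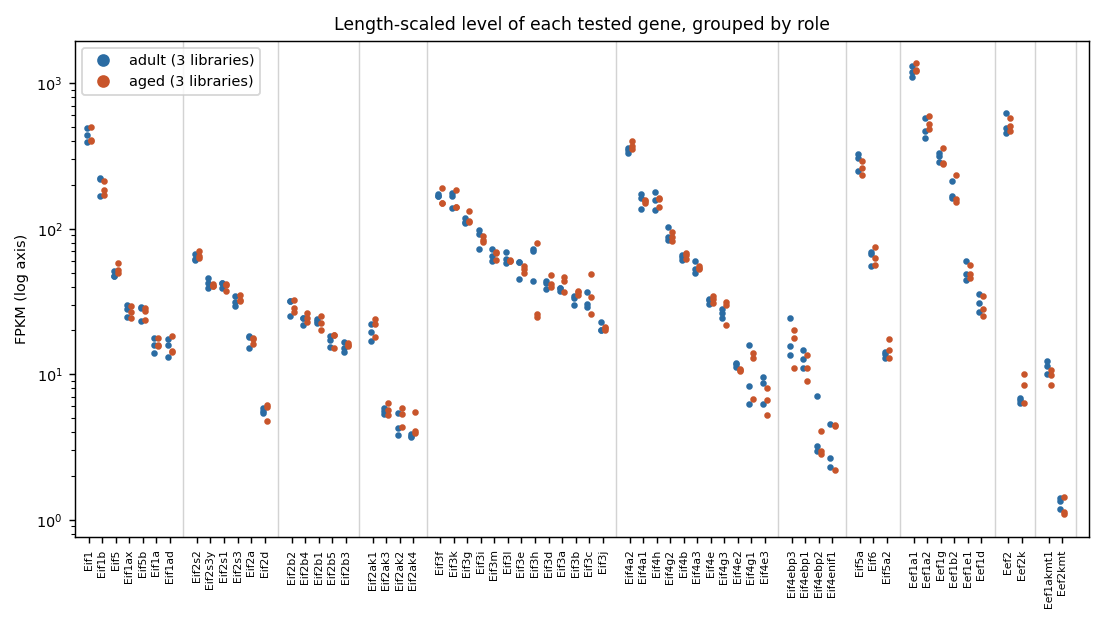
FPKM (log axis) of the 63 tested genes in each of 3 adult (blue) and 3 aged (orange) libraries, grouped by role and ordered by level within a role. Adult and aged points lie over each other for most genes, between Eef1a1 at a mean of 1236 FPKM and Eef2kmt at 1.26 FPKM.

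No translation factor gene differed between aged and adult rats by edgeR's quasi-likelihood test at an adjusted p under 0.05, and the smallest adjusted p among the 63 was 1.00. None of the 14588 genes tested passed that threshold either (0%). At an unadjusted p under 0.05, 0 of the 63 genes passed, against 503 of all genes (3.45%), of which 172 (1.18%) were higher and 331 (2.27%) lower in aged rats. DESeq2, limma-voom and limma on log2 FPKM also called 0 of the 63. The 3 aged values lay all above or all below the 3 adult values for 2 translation factor genes (3.17%), and for 1103 of all genes (7.56%), of which 646 (4.43%) were lower in aged rats. The log2 fold change, aged minus adult, was below 0 for 36 of the 63 genes (57.1%) and for 50.5% of all genes. That majority turned on leaving out 1 of 3 libraries: 33 were higher and 30 lower without adult replicate 1, 36 and 27 without adult replicate 3, and 39 and 24 without aged replicate 3.

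The fold changes were small and, for most genes, bounded closely. They ran from -0.51 for Eif3h to 0.30 for Eef2k on the log2 scale, with a median of -0.025 against -0.0022 for all genes tested. The estimate lay within a 1.25-fold change for 61 of the 63 genes, and for 11850 of the 14588 genes tested. The 95% interval of the fold change, from edgeR's fit, lay wholly within a 1.5-fold change either way for 50 of the 63 genes (79.4%), against 49.9% of all genes, and within a 2-fold change for 61 (96.8%), against 75.9%. The median standard error was 0.143, against 0.191 for all genes. Between the lowest and the highest of the 6 libraries the level differed by under 1.5 times for 52 of the 63 genes (82.5%), against 46.7% of all genes. The share was 52.4% for the 12951 genes whose mean was at or above that of the lowest translation factor gene. That floor was low, at the 2.20 CPM of Eef2kmt, and most genes tested pass it. None of these comparisons was thus matched for level, and the part of level in them was not tested.

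**Figure D2:**
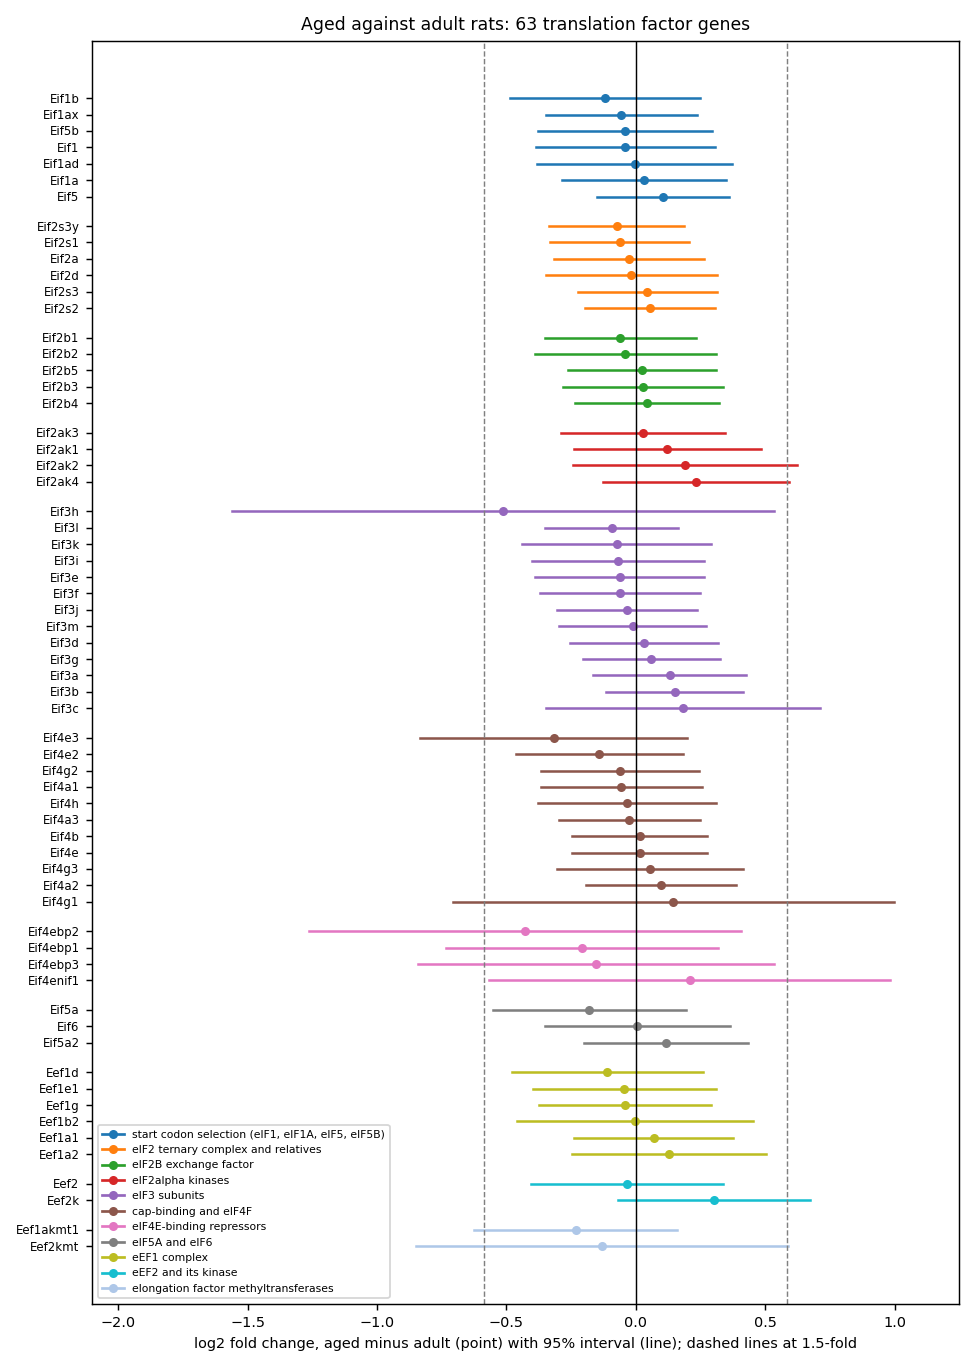
Log2 fold change, aged minus adult, with its 95% interval for 63 genes, coloured by role; dashed lines mark a 1.5-fold change. Every interval crosses 0, and 50 lie between the dashed lines, while Eif3h and Eif4ebp2 have the widest reach downwards.

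The genes of eIF2, the carrier of the initiator tRNA, differed between the ages by less than the spread between rats. Eif2s1 encodes eIF2alpha, the subunit that the stress kinases phosphorylate. Its level was 58.3, 53.2 and 60.4 CPM (counts scaled to a common library total, with TMM factors, here and below in the order of replicates 1 to 3) in the adult libraries and 57.8, 57.1 and 49.7 CPM in the aged libraries, and the groups overlap. The 95% interval of its fold change ran from 0.796 to 1.15. Eif2s3, the gamma subunit gene with the highest counts of the complex, averaged 118 ± 8.56 CPM (SD, n = 3) in adult and 121 ± 9.65 CPM (SD, n = 3) in aged rats. Its Y-linked copy Eif2s3y had the smallest p of the 6 genes of this role, with a log2 fold change of -0.07 (SE 0.11). The 6 genes include, beside the eIF2 subunits, the relatives Eif2a and Eif2d, with log2 fold changes of -0.03 and -0.02. Of the 6 genes, 2 were higher (Eif2s2 and Eif2s3) and 4 lower. The 5 subunits of eIF2B, the exchange factor that recharges eIF2 with GTP, were spread from -0.06 (Eif2b1) to 0.04 in log2 fold change, with 3 higher and 2 lower. Eif2b5, its catalytic subunit, stood at 53.3 ± 4.49 CPM at 4 months and 54.1 ± 5.06 CPM at 22 months (SD, n = 3).

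The 4 eIF2alpha kinases each had a higher mean in aged rats, by a median of 0.16 on the log2 scale, and none passed the test. Eif2ak4 encodes GCN2, the sensor of uncharged tRNA. It had 19.5, 20.1 and 20.0 CPM among adult rats, against 21.8, 20.6 and 27.5 CPM among aged rats. All 3 aged values lay above the adult values, aged replicate 2 by little, and aged replicate 3 stood apart. Its log2 fold change was 0.23 (SE 0.16), and 0.10 without aged replicate 3. Eif2ak2, the double-stranded RNA sensor PKR, came to 0.19 (SE 0.19). For Eif2ak1, the heme-regulated kinase and the most abundant of the 4, it was 0.12 (SE 0.16). Eif2ak3, the endoplasmic reticulum sensor PERK, came to 0.03 (SE 0.14), with overlapping groups. Libraries adult 1 and aged 2 held the lowest summed levels of the kinases (97.9 and 104 CPM), and aged replicate 1 the highest (132 CPM). Without adult replicate 1 or without aged replicate 1, 3 of the 4 were higher, with medians of 0.06 in both cases, and without aged replicate 2 the median was 0.27.

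Among the 21 tested target genes of the integrated stress response, 8 were higher and 13 lower in aged rats (median -0.06), and 2 were lower at an unadjusted p under 0.05, where the share of all genes lower at that p was 2.27%. Without adult replicate 3 the targets gave 10 higher and 11 lower, with a median of -0.0039. The median was -0.036, -0.030 and -0.038 without aged replicates 1, 2 and 3. It lay further from 0 without adult replicate 1 (-0.073) and without adult replicate 2 (-0.087). Atf5, a transcription factor translated under eIF2alpha phosphorylation, stood at 113, 98.1 and 129 CPM among adult rats, against 82.6, 88.0 and 77.7 CPM among aged rats. The aged libraries were all below the adult ones (log2 fold change -0.46, SE 0.13, edgeR adjusted p = 1.00). Aldh1l2, a mitochondrial folate enzyme, averaged 1.62 ± 0.398 CPM at 4 months and 0.765 ± 0.148 CPM at 22 months (SD, n = 3; edgeR adjusted p = 1.00). The summed level of the targets ran from 1519 to 1581 CPM in adult and from 1413 to 1511 CPM in aged libraries.

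Among the genes of start codon selection, Eif1 had 528, 417 and 490 CPM among adult rats, against 443, 536 and 417 CPM among aged rats. Eif5, which triggers GTP hydrolysis by eIF2, averaged 213 ± 8.40 CPM at 4 months and 229 ± 13.6 CPM at 22 months (SD, n = 3; log2 fold change 0.11, SE 0.11). Of the 7 genes of this role 2 were higher and 5 lower. Eif1b supplied 31.5% ± 1.69 of the summed FPKM of Eif1 and Eif1b in adult and 30.4% ± 0.843 in aged rats (SD, n = 3), a difference within the spread.

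The eIF3 complex, the scaffold on the small subunit, had 13 tested genes, 5 higher and 8 lower, and apart from Eif3h the log2 fold changes stayed between -0.09 and 0.18. Eif3f, the subunit with the highest counts, averaged 215 ± 7.38 CPM at 4 months and 206 ± 30.1 CPM at 22 months (SD, n = 3). For Eif3b, a core subunit, the log2 fold change was 0.15 (SE 0.12), and for Eif3a, the largest subunit, 0.13 (SE 0.13).

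Eif3h differed between single animals more than any other translation factor gene, with a highest level 3.43 times the lowest. It had 90.3, 86.5 and 55.2 CPM among adult rats, against 101, 32.3 and 29.4 CPM among aged rats. Aged replicate 1 held the highest level of all 6 libraries, and aged replicates 2 and 3 the lowest, so the aged group enclosed the adult one. The log2 fold change was -0.51 (SE 0.45), with an interval of the fold change from 0.339 to 1.45, and -1.31 without aged replicate 1. Without that library, or with a block for libraries with low liver transcripts, Eif3h passed an unadjusted p under 0.05, with an edgeR adjusted p of 1.00 in both cases. Eif3c was also highest in aged replicate 1, at 171 CPM against 89.2 and 112 CPM in the other aged libraries, while Eif3m had 87.0, 86.8 and 74.0 CPM in them. Liver marker genes were low in the same library, at a summed 27.5 CPM against 264 and 207 CPM in aged replicates 2 and 3. In the adult group they were at 26.8, 542 and 537 CPM, where Eif3h was high in replicates 1 and 2 and lowest in replicate 3. The part of liver RNA in this result was not tested.

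**Figure D3:**
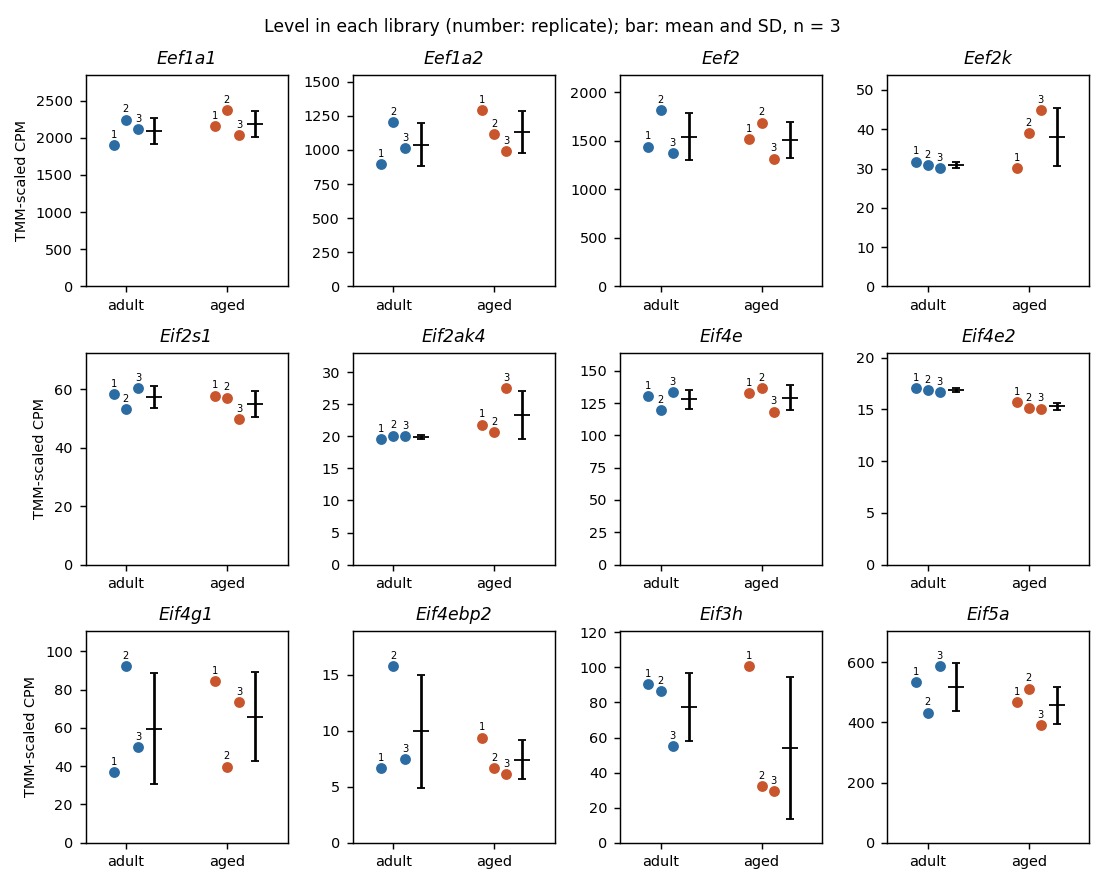
TMM-scaled CPM of 12 genes in each library, adult in blue and aged in orange, with the replicate number over each point and the mean and SD (n = 3) as a black bar. Eif4e2 and Eif2ak4 are the genes whose groups do not overlap, and Eif3h, Eif4g1 and Eif4ebp2 vary most between libraries of one age.

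At the cap, Eif4e, the cap-binding subunit, had 130, 120 and 133 CPM among adult rats, against 133, 137 and 118 CPM among aged rats, with an interval of its fold change from 0.844 to 1.21. Eif4e2 encodes 4EHP, a cap-binding relative that represses translation. It had 17.1, 16.9 and 16.7 CPM among adult rats, against 15.7, 15.1 and 15.1 CPM among aged rats. These groups do not overlap, and the values within each age were close together, while the difference was small (log2 fold change -0.14, SE 0.14, edgeR adjusted p = 1.00). The spread that edgeR uses borrows from all genes, so its standard error is not that of these 6 values alone. Eif4e2 made up 26.8% ± 1.19 of the summed FPKM of Eif4e and Eif4e2 in adult and 24.8% ± 1.33 in aged rats (SD, n = 3), with overlapping groups. Eif4e3, a further cap-binding gene, averaged 20.97 ± 4.74 CPM at 4 months and 16.8 ± 3.32 CPM at 22 months (SD, n = 3), with a log2 fold change of -0.32 (SE 0.22). In the GRCr8 annotation it overlaps Foxp1.

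Eif4a2, the helicase form with the highest counts in the role, averaged 709 ± 38.3 CPM at 4 months and 760 ± 67.6 CPM at 22 months (SD, n = 3). Its share of the summed FPKM of Eif4a1 and Eif4a2 was 68.7% ± 1.85 in adult and 70.8% ± 1.09 in aged rats (SD, n = 3), with overlapping groups. Eif4g1, the eIF4F scaffold, had 36.8, 92.2 and 49.8 CPM among adult rats, against 84.3, 39.8 and 73.4 CPM among aged rats. Each age thus held both high and low libraries, and the interval of the fold change ran from 0.613 to 1.99. The log2 fold change was 0.14 (SE 0.37), 0.61 without adult replicate 2 and -0.10 without adult replicate 1. Of the 11 tested genes of this role 5 were higher and 6 lower.

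The repressors that hold eIF4E were among the least even genes. Eif4ebp2, whose protein is known as the main 4E-binding protein of brain, had 6.63, 15.7 and 7.46 CPM among adult rats, against 9.38, 6.67 and 6.13 CPM among aged rats. The high adult value came from replicate 2 alone: the log2 fold change was -0.43 (SE 0.36), and 0.07 without that library. Eif4ebp1 averaged 10.9 ± 1.49 CPM at 4 months and 9.46 ± 2.08 CPM at 22 months (SD, n = 3), with a log2 fold change of -0.21 (SE 0.23). On the length-scaled measure Eif4ebp3 stood at 17.1 FPKM, Eif4ebp1 at 12.02 FPKM and Eif4ebp2 at 3.85 FPKM. In RNA, Eif4ebp2 was thus the lowest of these here, and protein was not measured. Eif4enif1, which encodes the shuttling protein 4E-T, had 10.4, 20.5 and 12.3 CPM among adult rats, against 20.4, 10.0 and 19.5 CPM among aged rats. Its high libraries were adult replicate 2, aged replicate 1 and aged replicate 3, which were also those of Eif4g1. Together with Eif3h, Eif4g1, Eif4ebp2 and Eif4ebp3, it made up the 5 genes whose highest library was at least 2 times the lowest, named here after their values were seen.

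The genes upstream of eIF4E gave 9 higher and 7 lower of 16 mTORC1 and MNK pathway genes, with a median of 0.02 and none at an unadjusted p under 0.05. Tsc1, an inhibitor of mTORC1, had a log2 fold change of 0.23 (SE 0.14), and Mknk2, a kinase of eIF4E, -0.16 (SE 0.12). Among 7 genes of poly(A)-binding protein and its partners, 3 were higher and 4 lower. Pabpc1, the main cytoplasmic poly(A)-binding protein gene, had 154, 165 and 167 CPM among adult rats, against 155, 134 and 146 CPM among aged rats (log2 fold change -0.17, SE 0.11), and Paip2, its inhibitor, came to -0.13 (SE 0.11). The summed level of the 7 genes was 610 to 629 CPM in adult and 582 to 591 CPM in aged libraries, without overlap. Taken singly, 0 of the 7 genes had groups without overlap, against 7.56% of all genes, and 0 passed an unadjusted p under 0.05. How often such sums of other gene sets do not overlap was not computed.

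In elongation, Eef1a1 had 1906, 2247 and 2116 CPM among adult rats, against 2161, 2377 and 2035 CPM among aged rats. The interval of its fold change ran from 0.848 to 1.30. Eef1a2 had 893, 1205 and 1015 CPM among adult rats, against 1294, 1117 and 989 CPM among aged rats, with overlapping groups and an interval of the fold change from 0.842 to 1.42. Eef1a2 made up 28.8% ± 1.49 of their summed FPKM in adult and 29.7% ± 2.78 in aged rats (SD, n = 3). Skeletal muscle also expresses Eef1a2, and the muscle marker sum ranged from 32.6 CPM in aged replicate 2 to 357 CPM in adult replicate 3. Eef1a2 had 1117 CPM in the former library and 1015 CPM in the latter. The part of muscle RNA in the Eef1a2 values was not tested. GRCr8 names 20 pseudogenes after Eef1a1, so its counts depend on how the authors' counting treated reads with several matches. Of the 6 genes of the eEF1 complex 2 were higher and 4 lower.

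Eef2 had 1439, 1818 and 1370 CPM among adult rats, against 1514, 1686 and 1317 CPM among aged rats, and its interval of the fold change ran from 0.754 to 1.26. Eef2k, the kinase that inhibits eEF2 and responds to calcium and calmodulin, had the smallest p of the 63 genes. Its level was 31.8, 30.8 and 30.1 CPM among adult rats, against 30.2, 39.0 and 44.9 CPM among aged rats. The adult libraries were close together, aged replicates 2 and 3 lay above them, and aged replicate 1 lay among them. The log2 fold change was 0.30 (SE 0.16, edgeR adjusted p = 1.00), and the interval of the fold change ran from 0.952 to 1.59. It was 0.16 without aged replicate 3 and 0.46 without aged replicate 1, where Eef2k passed an unadjusted p under 0.05. Eef1akmt1, a methyltransferase of eEF1A, averaged 20.7 ± 2.46 CPM at 4 months and 17.7 ± 2.47 CPM at 22 months (SD, n = 3), with a log2 fold change of -0.23 (SE 0.17).

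Eif5a encodes the hypusine-bearing factor that helps ribosomes through difficult peptide bonds. It had 534, 432 and 587 CPM among adult rats, against 467, 512 and 391 CPM among aged rats, with overlapping groups and a log2 fold change of -0.18 (SE 0.16). Its paralogue Eif5a2 made up 4.50% ± 0.833 of their summed FPKM in adult and 5.43% ± 1.07 in aged rats (SD, n = 3). Of 8 tested genes for hypusine and diphthamide, the modifications of eIF5A and eEF2, 4 were higher and 4 lower. Dhps, the first enzyme of hypusine synthesis, had a log2 fold change of 0.17 (SE 0.12), and Dph3, of the diphthamide pathway, -0.18 (SE 0.13). Termination, recycling and rescue genes gave 5 higher and 4 lower of 9, with Hbs1l, a rescue factor, at -0.19 (SE 0.11) and Gspt2, a release factor, at 0.21 (SE 0.15). Mitochondrial translation factors gave 7 higher and 3 lower of 10, and those of smallest p were the mitochondrial elongation factors Tsfm at 0.20 (SE 0.16) and Tufm at 0.17 (SE 0.13). None of these directions was firm: on leaving out each library, 2 to 5 of 8, 3 to 8 of 9 and 5 to 7 of 10 genes were higher in these lists, in the order given.

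The aminoacyl-tRNA synthetase and ribosomal protein genes each lay mostly on one side of 0, in opposite directions, without an adjusted call. Of 22 cytosolic aminoacyl-tRNA synthetases, the enzymes that charge tRNAs, 21 were higher in aged rats, with a median log2 fold change of 0.09. Lars, the leucine enzyme, had 68.1, 65.5 and 65.2 CPM among adult rats, against 76.8, 73.8 and 75.3 CPM among aged rats, all aged above all adult (log2 fold change 0.18, SE 0.10, edgeR adjusted p = 1.00). Iars, the isoleucine enzyme, came to 0.19 (SE 0.12) with overlapping groups. The groups did not overlap for 2 of the 22 synthetases (9.09%), near the share of all genes (7.56%). Between 18 and 21 of the 22 were higher when each library was left out in turn. Of 25 ribosomal protein genes, 24 were lower in aged rats (median -0.14), and Rpl30 was lower at an unadjusted p under 0.05, with 233 ± 37.8 CPM at 4 months and 168 ± 23.2 CPM at 22 months (SD, n = 3; edgeR adjusted p = 1.00). That size rested on single libraries: the median was -0.041 without adult replicate 1, -0.040 without aged replicate 1, -0.043 without aged replicate 3 and -0.34 without aged replicate 2, with 8, 10, 9 and 1 of the 26 genes then tested higher. The 25 ribosomal protein genes had a median length of 765 bases, and 72.9% of all genes of at most 1000 bases were lower. The genes of each list vary together between animals and are not separate replicates.

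Fold changes of the translation factor genes went with gene length. Over the 63 genes the Spearman correlation of log2 fold change with the gene length behind the FPKM values was 0.54, against 0.12 over all 14588 genes; it is across genes measured in the same 6 libraries, which are not independent replicates. All 6 genes of at most 1000 bases were lower in aged rats (median -0.10), as were 72.9% of all 936 genes of that length (median -0.12). Of 37 genes over 1000 and up to 3000 bases, 25 were lower (67.6%), against 52.6% of all genes of that length. Of 20 genes over 3000 bases, 15 were higher and 5 lower (25%, median 0.05), against 46.0% lower among all genes of that length (median 0.02). This class holds Eef2k, Eif2ak4, Eif2ak2, Eif3a and Eif5, which were among the higher genes. The 5 lower genes were Eef1d, Eif1ax, Eif2d, Eif4g2 and Eif5b. The length classes were chosen after the data had been seen. Without adult replicate 1, and also without aged replicate 3, 4 of the 6 short genes were lower, and their median ran from -0.21 without aged replicate 2 to -0.015 without adult replicate 1. Without aged replicate 1 the long genes gave 9 higher and 11 lower (median -0.0064), and without aged replicate 2 their median was 0.13.

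**Figure D4:**
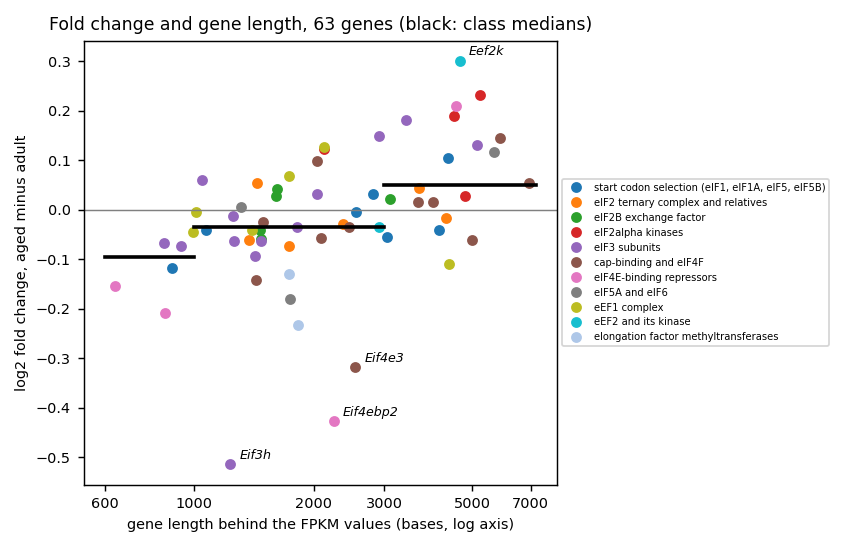
Log2 fold change, aged minus adult, against gene length (log axis) for 63 genes, coloured by role, with black bars at the medians of 3 length classes. The class medians are -0.10, -0.03 and 0.05 from short to long, while Eif3h, Eif4ebp2 and Eif4e3 lie far below the medium class.

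The length pattern followed single libraries within each age. As the median deviation of log2 CPM from each gene's mean over the 6 libraries, the 6 short genes stood at 0.17, -0.21 and 0.14 in the adult and -0.06, 0.17 and -0.20 in the aged libraries. Ribosomal protein genes had 0.20, -0.10 and 0.10 in adult and -0.23, 0.27 and -0.32 in aged libraries. Both groups were thus high in adult replicates 1 and 3 and aged replicate 2, and low in the other 3 libraries. The 20 long genes had -0.11, 0.0023 and 0.0021 in adult and 0.14, -0.09 and 0.02 in aged libraries, lowest in adult replicate 1 and aged replicate 2. Eef1b2, which bears the longest tract of those printed, had 217, 163 and 174 CPM among adult rats, against 159, 238 and 156 CPM among aged rats, highest in aged replicate 2 and adult replicate 1, with a log2 fold change of -0.0040 (SE 0.20). Genes with a tract did not share 1 order of libraries. Eif3f was also highest in aged replicate 2 (240 CPM), while Eif4h was lowest in adult replicate 1 (328 CPM) and Eif2s3 highest in aged replicate 1 (132 CPM). Of the 7 genes with a tract 6 were lower in aged rats, with a median of -0.03. Of 50 tested genes with a start sequence and no match 25 were lower. Among the 6, Eef1b2, Eif3m, Eif2a, Eif4h and Eif3f changed sign in 8, 5, 3, 2 and 1 of the 17 alternative fits described below. Eef1akmt1 never did. The part of the tract in these directions was not tested. The synthetases had deviations of -0.02, -0.02 and -0.04 in adult and 0.12, 0.03 and 0.0025 in aged libraries. All aged values lay above all adult values, by little between adult replicate 1 (-0.016) and aged replicate 3. Like the long genes, the synthetases were highest in aged replicate 1. The part of gene length in the synthetase values was not tested. The part of RNA quality in these library differences was not tested.

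**Figure D5:**
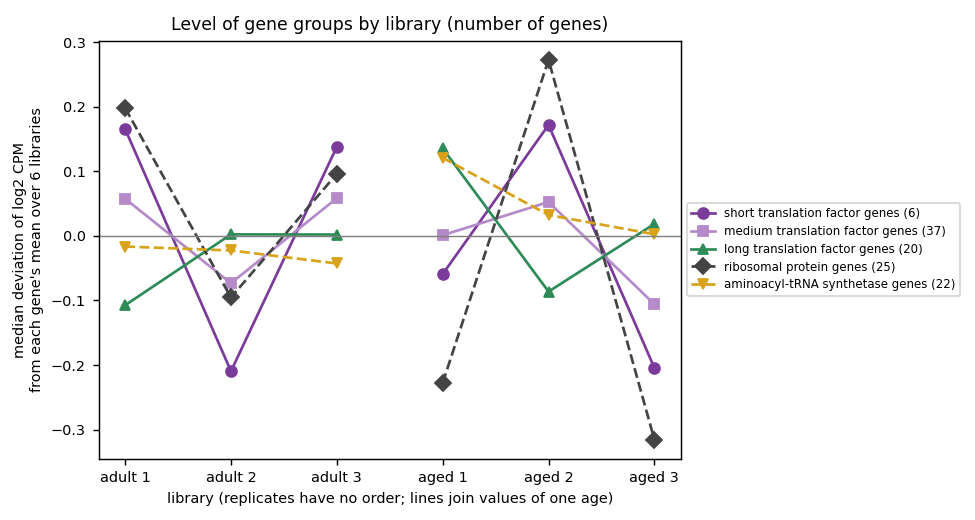
Median deviation of log2 CPM from each gene's mean over 6 libraries, for translation factor genes in 3 length classes, ribosomal protein genes and aminoacyl-tRNA synthetase genes. The ribosomal protein genes and the short translation factor genes are high in adult replicates 1 and 3 and aged replicate 2, within both ages.

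In bulk tissue, fewer cells of a type and less RNA per cell cannot be told apart. All 8 neuronal markers were tested, and their summed level, led by Snap25 and Syt1, was 7336 to 7990 CPM in adult and 7218 to 9186 CPM in aged libraries. Mbp, the myelin basic protein gene of oligodendrocytes, had 10954, 6921 and 7177 CPM among adult rats, against 3997, 4576 and 5620 CPM among aged rats. Its groups did not overlap, as for 7.56% of all genes, and it was not called at an adjusted p under 0.05. Sums of the 6 astrocyte markers, led by Gfap and Slc1a3, ran from 2131 to 2687 CPM in adult and 2156 to 2531 CPM in aged libraries. For the 6 microglial markers, led by Csf1r and C1qa, they ran from 227 to 303 CPM and from 266 to 385 CPM, and for the 5 endothelial markers, led by Cldn5 and Flt1, from 218 to 306 CPM and from 160 to 239 CPM. Choroid plexus markers, led by Ttr and Aqp1 and with 4 tested, summed to 2118 CPM in adult replicate 1 and to 9.25 to 72.8 CPM in the other libraries. Liver markers were led by Alb and Serpina1, with Ahsg at 0 CPM in aged replicate 1, and muscle markers by Acta1 and Myh4. The translation factor genes summed to 11757 to 12487 CPM in adult and 11228 to 12836 CPM in aged libraries, and these ranges overlapped. The part of these cell types in the single-gene values was not tested.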

How the data were processed

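RNA-seq counts per gene symbol were deposited by the authors as whole numbers, with a column for each library, and a second table deposited by the authors held FPKM values. Every nonzero FPKM matched, within 0.1%, the count scaled by 1 length per gene and by the library's sum, which makes them a single measurement. The build was Rnor_6.0, per the submitters' processing notes. Which aligner and counter were used, and whether strand was read, is not given in the sources used here. Without known strand use, reads of overlapping genes cannot be told apart: 22 of the 64 genes overlap another gene in the GRCr8 annotation, such as Eef2k, Eif5a, Eif4e3 and Eif2ak1, and 35 have named pseudogenes (125 in all).

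Genes were filtered with filterByExpr, scaled by TMM and tested for aged minus adult over all 14588 genes by the quasi-likelihood F test of edgeR 4.0.16 under R 4.3.3 (functions glmQLFit and glmQLFTest). The model held age alone, tests were two-sided, and p-values were adjusted by Benjamini-Hochberg; a gene was called at an adjusted p under 0.05. CPM are TMM-scaled, and log2 CPM for deviations had a prior count of 0.5. Standard errors and 95% intervals come from that fit and rest on 3 rats a group. Each library is a separate rat. The script was tested on simulated counts. DESeq2 1.42.0, limma 3.58.1 (voom, and log2 FPKM with pseudocounts of 1 and 0.1), other scalings and filters, blocks and leaving out each library were alternatives. The liver block marks libraries with under 100 summed liver CPM.

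The genes, lists, alternatives and naming rule were chosen with earlier results of these data known. The rule names, for each role, the gene with the smallest p and the one with the highest mean CPM, the 6 genes of smallest p in each direction at a mean of at least 1 CPM, every gene whose groups do not overlap, and Eef1a1, Eef1a2, Eef2, Eef2k, Eif2s1, Eif2ak3, Eif2ak4, Eif4e, Eif4ebp1, Eif4ebp2, Eif4g1 and Eif5a; it took 29 genes. For a pathway it names genes at an unadjusted p under 0.05, or else the 2 with the smallest p, and for markers the 2 of highest mean. One gene that the rule takes, and the marker sum that holds it, are not reported here. Promoter sequences are RefSeq's (GRCr8); all 64 genes matched its gene table. Figures were drawn with matplotlib 3.10.9.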

Additional observations from a re-analysis of the deposited data

How the results depend on the processing

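No translation factor gene was called at an adjusted p under 0.05 under any of the 17 alternatives. For all genes, DESeq2 called 31 (13 higher and 18 lower), limma on log2(FPKM + 1) called 2, and leaving out each library in turn gave 0 to 1; the cause was not tested. The number of translation factor genes at an unadjusted p under 0.05 was 1 with the replicate block and 1 with the block for libraries with low liver transcripts (Eif3h, lower, in both), and 0 to 2 when leaving out each library (2 without aged replicate 1, Eif3h lower and Eef2k higher). In those 3 fits 3.21%, 3.13% and 2.73% of all genes passed that p. The replicate numbers gave no sign of a pairing of the rats: the correlations of same-numbered deviations were -0.14, -0.11 and 0.06. Those of differently numbered deviations ran from -0.12 to 0.20. With 3 rats a group these values cannot exclude a pairing. The median log2 fold change of the group ran from -0.046 to 0.040 when leaving out each library. The other scalings, filters and tests left it below 0. Over the alternatives 90 of 1071 single-gene values changed sign, and the 6 values that moved by over 1 SE did so on leaving out 1 library; 22 of the 63 genes never changed sign. With 3 rats a group, the 95% intervals of Eif3h and Eif4ebp2 reached past a 2-fold change.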
